A study of Mus musculus with 8 samples.

Results

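Germline genes were followed through knockdown of Fbxl19 and through early differentiation in mouse embryonic stem cells. The 8 genes were Dmrt1, Morc1, Dppa2, Dppa3, Dazl, Ddx4, Sycp3 and Stra8, taken by symbol with every probe set that the array's annotation assigned to that symbol alone. They had 10 probe sets, out of 12393 genes with 20380 such probe sets in the series. A probe set is a group of short array oligonucleotides that reads 1 transcript. Dppa2 and Dazl had 2 each and the other 6 genes had 1 each. The symbols were chosen with results of these arrays known. Dmrt1 was picked for its level under the Fbxl19 hairpins, and Morc1 for its level on day 4, so those values are given as a description without a test.

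All cells were of the mouse embryonic stem cell line J1. Undifferentiated cells were grown on gelatin with serum and leukemia inhibitory factor (LIF), the cytokine that keeps such cells undifferentiated. There were 4 groups of 2 arrays. They were a control hairpin (shControl), the hairpins shRNA1 and shRNA2 against Fbxl19, and cells on day 4 of differentiation. The hairpins' target, Fbxl19, encodes an F-box protein whose CXXC zinc finger binds unmethylated CpG DNA. How the cells were differentiated, whether those on day 4 held a hairpin, and which control is theirs are not in the labels. Nothing in the labels ties replicates to separate cultures. The p-values thus reflect the spread of these arrays alone, and that spread may be technical.

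Fbxl19 itself had 0 annotated probe sets, and the extent of its knockdown was not measured here. The defining stem cell genes Pou5f1 (12.15 to 12.57 on the log2 scale of the arrays) and Sox2 (11.23 to 12.31) were high in all 4 groups. Of 10 stem cell markers, 7 fell on day 4, where 8.73% of all genes fell. The median of the 10 was -0.72, and Nanog (-1.70), Esrrb (-3.71) and Klf4 (-4.55) were among those that fell. Replicate 2 of shControl stood apart in its distribution, with a median of 5.81 where the other 7 arrays had 5.7 to 5.76. Day 4 replicates differed most across genes (SD of the difference 0.41, against 0.31 in shControl, 0.20 with shRNA1 and 0.22 with shRNA2). The actin controls, read at both ends of the transcript as a sign of RNA quality, had a 3' signal above the 5' signal by 0.54 and 0.60 (log2) in shControl, 0.70 to 0.76 on the 4 hairpin arrays, and 0.65 and 0.73 on day 4. The Gapdh controls gave 0.17 and 0.26 for shControl, and the 6 remaining arrays 0.18 to 0.27.

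Germ cells arise from the early embryo's pluripotent cells, and stem cells in culture carry part of the germ cell transcriptome. Dmrt1 is a DM-domain transcription factor that controls mitosis and meiosis in the testis. Morc1 encodes a GHKL ATPase needed to silence transposons in male germ cells. Dppa2 is a DNA-binding SAP-domain protein of pluripotent cells and Dppa3 (Stella) guards maternal DNA methylation. Dazl and Ddx4 (Vasa) are RNA-binding proteins of germ cells, Stra8 is the factor through which retinoic acid starts meiosis, and Sycp3 builds the axis of meiotic chromosomes. In somatic and stem cells many meiotic genes are held silent by DNA methylation and by a Polycomb complex that E2f6, Mga and Max bring to their promoters.

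The groups differed most on day 4. Against shControl, Sycp3 and Ddx4 rose, while Dppa3, Dmrt1, Stra8 and Dppa2 fell, and Dazl did not pass the test. Morc1, chosen for this, was the lowest of all 8 genes relative to control. Under the hairpins Dmrt1 was lower with both, by different amounts, and none of the other 7 genes passed. Values below are RMA values, which are on a log2 scale, so a difference of 1 is a doubling. Errors of differences are the standard errors (SE) of a limma model over the 4 groups, and genes were called where p, adjusted by Benjamini-Hochberg over all genes, was under 0.05.

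**Figure D1:**
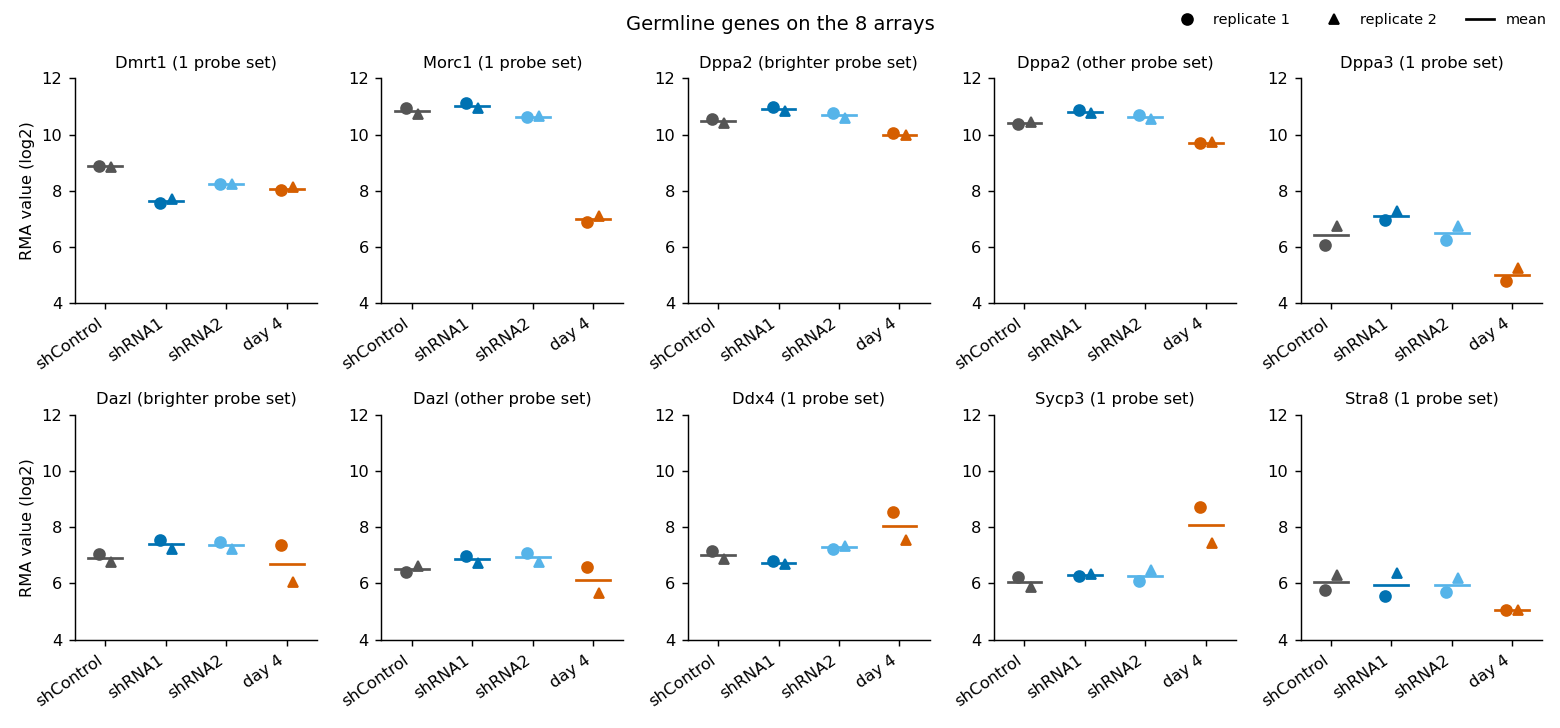
RMA values (log2, vertical axis) of the 10 probe sets in the 4 groups (horizontal axis). Circles are replicate 1, triangles replicate 2 and bars group means. Morc1 drops to 6.88 and 7.11 on day 4, and the day 4 arrays lie far apart for Dazl, Ddx4 and Sycp3.

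Dmrt1 (probe set 1423582_at) had 8.89 and 8.85 in shControl, 7.55 and 7.69 with shRNA1, 8.25 and 8.24 with shRNA2, and 8.01 and 8.12 on day 4. No 2 groups overlapped, and control was the highest and shRNA1 the lowest. In that order the nearest neighbours were shRNA2 and day 4, whose means differed by 0.18 where the larger group SD was 0.08. The difference from control was -1.24 ± 0.13 (SE, 2 against 2 arrays) with shRNA1, a level 2.37-fold lower, and -0.62 ± 0.13 with shRNA2, 1.54-fold lower. These differences chose the gene and carry no test, and neither does the gap of 0.62 ± 0.13 between the hairpins. On day 4 Dmrt1 fell by 0.80 ± 0.13 (limma adjusted p = 0.00306), with -0.86 to -0.74 under the 16 alternative settings. This contrast uses control arrays that also entered the choice of the gene, so its p is not free of that choice. The gap between the ends of actin also separated control from the 3 other groups, as given above, while that of Gapdh did not, and its part in the level of Dmrt1 was not tested. In RNA from whole cultures, fewer cells of a kind and less RNA per cell cannot be told apart.

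Its relatives on the array gave no such pattern. Dmrtb1, another DM-domain gene of the testis, differed from control by -0.15 ± 0.14 with shRNA1, 0.15 ± 0.14 with shRNA2 and -0.06 ± 0.14 on day 4 (adjusted p from 0.766 to 0.989 in the limma fit). Dmrt2, a DM-domain gene of the embryo's somites, had a control mean of 2.82, under the lower quartile of every array, so its values of -0.03 to 0.25 say little about its RNA. The remaining 5 listed Dmrt genes were not analysed here.

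Morc1 (1419418_a_at) had 10.95 and 10.74 in shControl, 11.12 and 10.93 with shRNA1, 10.64 and 10.65 with shRNA2, and 6.88 and 7.11 on day 4. The day 4 arrays lay far under all others, and among the undifferentiated groups shRNA1 overlapped control. The day 4 difference was -3.85 ± 0.15, a level 14.4-fold lower, the tenth largest fall in the series by rank. It chose the gene and is given without a test. Under the hairpins Morc1 had 0.18 ± 0.15 with shRNA1 (limma adjusted p = 0.729) and -0.20 ± 0.15 with shRNA2 (adjusted p = 0.989), opposite signs that were each close to the size of their error. The gap between the hairpins was -0.38 ± 0.15 (adjusted p = 0.870). Of the other Morc genes, Morc3 had -0.21 ± 0.19 on day 4 (adjusted p = 0.524) and Morc4 0.47 ± 0.14 (adjusted p = 0.0536).

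Dppa2 and Dppa3 are genes of both pluripotent cells and primordial germ cells. The brighter Dppa2 probe set (1453223_s_at) had 10.56 and 10.40 in shControl, 10.97 and 10.83 with shRNA1, 10.78 and 10.59 with shRNA2, and 10.04 and 9.97 on day 4. The groups did not overlap, with shRNA1 on top and day 4 at the bottom. Dppa2 fell by 0.48 ± 0.14 on day 4 (limma adjusted p = 0.0498), close to the threshold. The second probe set (1429654_at), with 10.39 and 10.46 in shControl and 9.70 and 9.73 on day 4, gave -0.71 ± 0.13 (adjusted p = 0.00697 over all probe sets). Without any 1 of the 8 arrays the brighter probe set was no longer called, with -0.39 without shControl replicate 1, -0.56 without shControl replicate 2 and -0.51 and -0.44 without day 4 replicate 1 and replicate 2. Without a hairpin array the difference stayed at -0.48 and the adjusted p was 0.0801 to 0.0932. With shRNA1 Dppa2 had 0.42 ± 0.14 (adjusted p = 0.400) and with shRNA2 0.21 ± 0.14 (adjusted p = 0.989). Dppa4, whose protein binds Dppa2, had -0.38 ± 0.14 on day 4 (adjusted p = 0.0964), and -0.04 ± 0.14 and 0.12 ± 0.14 with shRNA1 and shRNA2.

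Dppa3 (1424295_at) had 6.08 and 6.75 in shControl, 6.94 and 7.28 with shRNA1, 6.24 and 6.75 with shRNA2, and 4.77 and 5.25 on day 4. Replicate 2 was the higher array in every group. Dppa3 fell by 1.41 ± 0.27 on day 4 (limma adjusted p = 0.00796), 2.66-fold lower. Without shControl replicate 2 the value was -1.08 and was not called (adjusted p = 0.0820). With shRNA1 both arrays lay above both controls, and the difference of 0.69 ± 0.27 did not pass (adjusted p = 0.461). With shRNA2 it was 0.08 ± 0.27 (adjusted p = 0.995), with arrays that overlapped control.

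**Figure D2:**
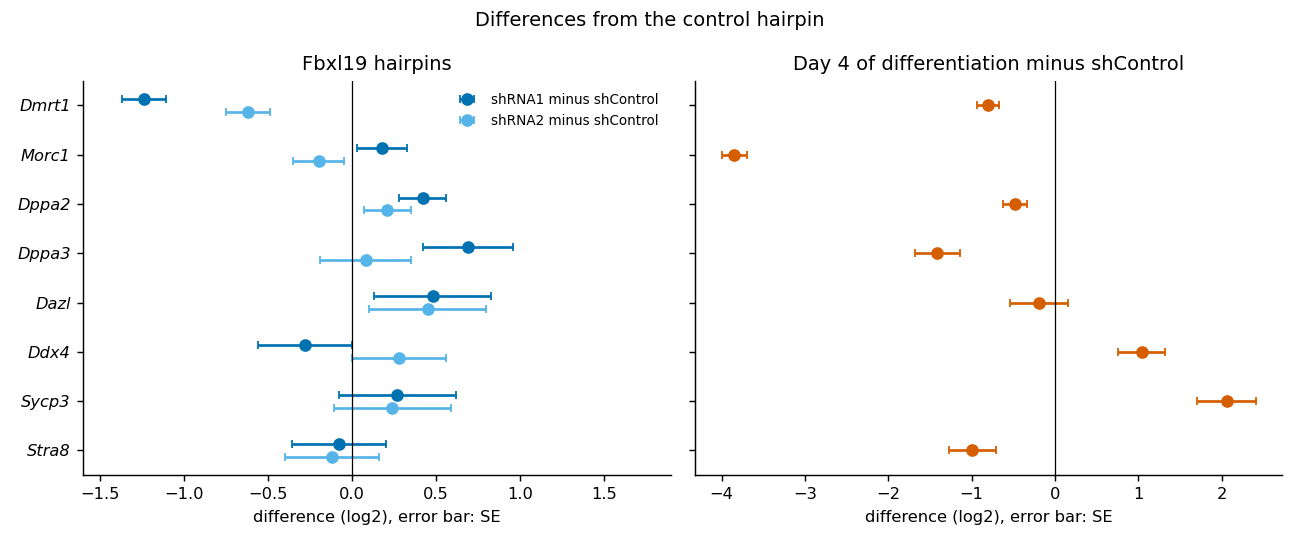
Differences from shControl (log2, horizontal axis) for each of the 8 genes, for the 2 hairpins at the left and day 4 at the right. Points are limma estimates and bars SE. Dmrt1 is lower in all 3 comparisons, and on day 4 Sycp3 (2.06) and Ddx4 (1.04) lie on the opposite side of 0 from Morc1 (-3.85).

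Sycp3 and Ddx4 were the pair that rose on day 4. Their promoters are shown because both genes rose and both held the letters of sites through which meiotic genes are known to be silenced. Any part of these sites in the rise was not tested. Sequences are from RefSeq (GRCm38.p6), 250 bases before the transcription start, with an E2F-type motif, GCGGGA, and the E-box CACGTG in capitals. Both strands were searched, CACGTG reads the same on each, and the matches did not overlap. The Sycp3 window is chr10:88459337-88459586 on the plus strand and the Ddx4 window chr13:112652311-112652560 on the minus strand, each printed 5′ to 3′ along the gene.
Sycp3: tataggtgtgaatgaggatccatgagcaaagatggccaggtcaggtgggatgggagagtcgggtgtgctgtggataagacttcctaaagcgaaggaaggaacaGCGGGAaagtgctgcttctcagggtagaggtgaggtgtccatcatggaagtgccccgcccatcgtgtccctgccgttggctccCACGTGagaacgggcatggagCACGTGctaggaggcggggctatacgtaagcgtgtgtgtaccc
Ddx4: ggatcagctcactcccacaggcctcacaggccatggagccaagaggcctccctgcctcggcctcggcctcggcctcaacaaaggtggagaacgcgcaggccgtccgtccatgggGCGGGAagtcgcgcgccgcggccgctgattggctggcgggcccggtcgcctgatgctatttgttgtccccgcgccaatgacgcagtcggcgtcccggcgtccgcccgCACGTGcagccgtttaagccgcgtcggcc

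In Sycp3 the GCGGGA match lay 142 to 147 bases before the start and the CACGTG matches at 59 to 64 and 38 to 43. In Ddx4 the GCGGGA match lay at 131 to 136 and the CACGTG match at 24 to 29. Of 32841 RefSeq promoter windows of this length, 16.9% held GCGGGA, 6.02% held CACGTG and 1.45% held both. The table also gave windows for Dazl and Stra8, 4 of the 8 genes in all, and these held neither set of letters. CpG pairs numbered 31 in Ddx4, 20 in Dazl, 12 in Sycp3 and 5 in Stra8, where the median of all windows was 6. Both motifs contain a CpG pair, and the shares above are over all windows, not windows matched for CpG pairs. A match describes the letters in this window and shows no binding.

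Sycp3 (1449534_at) had 6.22 and 5.86 in shControl, 6.26 and 6.35 with shRNA1, 6.08 and 6.48 with shRNA2, and 8.73 and 7.46 on day 4. The undifferentiated arrays lay between 5.86 and 6.48, and both day 4 arrays were above them. Sycp3 rose by 2.06 ± 0.35 (limma adjusted p = 0.00416), 4.16-fold. The rise was 1.42 without day 4 replicate 1 and 2.69 without day 4 replicate 2, and both were called. Without shControl replicate 2 it was 1.88 and was not called (adjusted p = 0.0656). With shRNA1 and shRNA2 the differences were 0.27 ± 0.35 and 0.24 ± 0.35 (adjusted p = 0.843 and 0.989).

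Ddx4 (1427242_at) had 7.14 and 6.89 in shControl, 6.80 and 6.68 with shRNA1, 7.23 and 7.35 with shRNA2, and 8.55 and 7.55 on day 4. Day 4 was the highest group, and the hairpins lay on opposite sides of control. Ddx4 rose by 1.04 ± 0.28 on day 4 (limma adjusted p = 0.0339), 2.05-fold. The call was lost without 7 of the 8 arrays and kept without day 4 replicate 2, where the rise was 1.54 (adjusted p = 0.000317). Without day 4 replicate 1 the rise was 0.54 (adjusted p = 0.0656). It was 1.16 without shControl replicate 1 (adjusted p = 0.0874) and 0.91 without shControl replicate 2 (adjusted p = 0.204). Without any 1 of the hairpin arrays it stayed at 1.04, with adjusted p of 0.0548 or 0.0549. The differences of -0.28 ± 0.28 with shRNA1 and 0.28 ± 0.28 with shRNA2 did not pass (adjusted p = 0.780 and 0.989). Nor did the gap of 0.56 ± 0.28 between the hairpins (adjusted p = 1.00).

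Dazl was measured by probe sets that gave the same order of groups for day 4 and control. The brighter (1419542_at) had 7.06 and 6.75 in shControl, 7.55 and 7.23 with shRNA1, 7.49 and 7.23 with shRNA2, and 7.36 and 6.07 on day 4. All 4 hairpin arrays lay above both controls, and the day 4 arrays lay on either side of them. The differences were 0.48 ± 0.35 with shRNA1 and 0.45 ± 0.35 with shRNA2 (limma adjusted p = 0.697 and 0.989), so Dazl did not pass under either hairpin. On day 4 it had -0.19 ± 0.35 (adjusted p = 0.782). Without day 4 replicate 1 the value was -0.84 and was called (adjusted p = 0.0243), and without day 4 replicate 2 the sign turned, at 0.46. The second probe set (1449502_at) gave -0.41 ± 0.27 on day 4 (adjusted p = 0.392).

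Stra8 (1420568_at) had 5.78 and 6.31 in shControl, 5.57 and 6.36 with shRNA1, 5.68 and 6.18 with shRNA2, and 5.07 and 5.05 on day 4. In the 3 undifferentiated groups replicate 2 was the higher array, those groups overlapped, and the day 4 arrays lay under all of them. Stra8 fell by 0.99 ± 0.28 on day 4 (limma adjusted p = 0.0440), 1.98-fold lower. The call was lost without shControl replicate 1 (-1.25, adjusted p = 0.0607) or replicate 2 (-0.72, adjusted p = 0.273), without day 4 replicate 1 (-1.0, adjusted p = 0.0869) or replicate 2 (-0.98, adjusted p = 0.0772), and without either shRNA2 array (-0.99, adjusted p = 0.0507). The hairpins gave -0.08 ± 0.28 and -0.12 ± 0.28 (adjusted p = 0.944 and 0.990).

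Counted together, 2 of the 7 genes tested on day 4 rose and 4 fell, where 7.67% and 8.73% of all 12393 genes rose and fell. The median day 4 difference of the 7, without Morc1, was -0.48, beside 0.00 over all genes. With Dmrt1 left out as chosen, 0 of 7 genes passed with shRNA1, with shRNA2, in the mean of both hairpins, or between the hairpins, in the same limma fit. Over all genes 0.242%, 0%, 0.0726% and 0.105% were called in these comparisons. At an unadjusted p under 0.05 the counts were 2, 0, 1 and 1 of 7, beside 9.82%, 5.10%, 8.42% and 5.15% of all genes. Arrays of control and hairpin did not overlap for 6 of the 8 genes with shRNA1 and 5 with shRNA2, Dmrt1 among them, and for 43.4% and 33.1% of all genes. On day 4 they did not overlap for 7 of the 8, Morc1 among them, and for 50.4% of all genes. The comparisons with each hairpin and with day 4 share the control arrays. The day 4 p of Dmrt1, 1 of the 4 genes that fell, is therefore not free of the choice of that gene.

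A further 7 lists held 91 measured genes, namely germ cell genes, relatives of Dmrt1 and Morc1, and 23 repressors of germline genes. On day 4, 27 of the 91 fell and 5 rose (35.2%, where 16.4% of all genes were called), with a median of -0.18. The repressors, which are not germ cell genes as such and are described below, supplied 6 of these falls and 3 of the rises. Among 15 genes of germ cell specification, 9 fell and 1 rose, with a median of -1.04. Dppa5a, 1 of those that fell, was also among the 10 stem cell markers, so this list is not of germ cells alone. Kit, the receptor that primordial germ cells need to survive, fell by 3.24 ± 0.15 (limma adjusted p = 4.65e-06; -2.13 with the mean of its probe sets). Ifitm1, a membrane protein of early germ cells, fell by 1.54 ± 0.15 (adjusted p = 0.000190). Tfap2c, an AP-2 transcription factor of germ cell specification, and the alkaline phosphatase gene Alpl fell by 1.75 ± 0.36 and 1.6 ± 0.31 (adjusted p = 0.0110 and 0.00832). These were not called without shControl replicate 1 (-1.54 and -1.69) or replicate 2 (-1.96 and -1.52), and were -1.08 for Tfap2c without day 4 replicate 2 and -1.01 for Alpl without day 4 replicate 1. The gene that rose, named here after its value was seen, was the RNA-binding protein gene Lin28a, by 0.85 ± 0.17 (adjusted p = 0.0103; 0.81 and not called without shControl replicate 2).

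Of 23 further meiosis genes, 5 fell and 0 rose on day 4 in the limma fit, where 16.4% of all genes were called, with a median of -0.17. At an unadjusted p under 0.05 there were 9, beside 29.2% of all genes. The cohesin subunit gene Stag3 fell by 1.54 ± 0.21 (adjusted p = 0.00121) and Tex11, a gene of meiotic crossovers, by 1.07 ± 0.14 (adjusted p = 0.00102). Hormad1, an axis protein like Sycp3, fell by 1.31 ± 0.17 (adjusted p = 0.000902) to a mean of 3.27, which is below the lower quartile on all arrays and leaves the size of its fall uncertain. Tex14, which keeps the bridges between germ cells open, fell by 1.80 ± 0.42 (adjusted p = 0.0198), with -0.97 without day 4 replicate 2. It was not called without shControl replicate 1 (-1.98) or replicate 2 (-1.63).

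Of 19 listed genes of the piRNA pathway, by which germ cells silence transposons, 9 were measured. On day 4, 3 of these 9 fell and 1 rose, where 16.4% of all genes were called, with a median of -0.33. Rnf17 and the Argonaute gene Piwil2 fell by 1.1 ± 0.18 and 1.02 ± 0.22 (limma adjusted p = 0.00312 and 0.0136), and the Argonaute gene Piwil1 by 0.52 ± 0.13 (adjusted p = 0.0278). Rnf17 had 4.21 and 3.75 on day 4. The value of replicate 2 was under that array's lower quartile of 3.9, which leaves the size of the fall uncertain. Piwil2 was -0.88 and not called without shControl replicate 2, and -0.67 without day 4 replicate 2. Piwil1 was not called without shControl replicate 2 (-0.41), without day 4 replicate 1 (-0.51) or without any 1 of the hairpin arrays (-0.52, adjusted p = 0.0594 or 0.0630). The Tudor protein gene Tdrd7 rose by 0.74 ± 0.18 (adjusted p = 0.0244) from a mean of 3.31, under the lower quartile of every array. It was not called without shControl replicate 1 (0.78), shControl replicate 2 (0.70) or day 4 replicate 1 (0.51).

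Of 17 regulators of spermatogonia and oocytes, 4 fell and 0 rose in that fit, and 4 had an unadjusted p under 0.05, beside the same 16.4% and 29.2% of all genes. The median was 0.05. Those 4 were Tcl1 (-3.83 ± 0.43), a cofactor of AKT, Zfp42 (-2.84 ± 0.45), also called Rex1, the egg coat gene Zp3 (-2.29 ± 0.16) and Etv5 (-0.71 ± 0.12), an ETS factor of spermatogonial stem cells, with limma adjusted p from 3.08e-05 to 0.00479. On day 4 Zp3 had 3.82 and 3.75, under those arrays' lower quartiles of 3.89 and 3.90, which leaves the size of its fall uncertain. Tcl1 and Zfp42 are also known as genes of undifferentiated stem cells.

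Genes that hold germline genes silent moved in both directions. Of 23 listed repressors and cofactors, 3 rose and 6 fell on day 4, with a median of -0.24, where 7.67% of all genes rose and 8.73% fell. The DNA methyltransferase gene Dnmt3b rose by 1.88 ± 0.24, Yaf2, of the Polycomb complex, by 1.6 ± 0.19 and E2f6 by 0.81 ± 0.13 (limma adjusted p = 0.000883, 0.000679 and 0.00309). E2f6 had 7.32 and 7.38 in shControl and 8.15 and 8.16 on day 4. Wdr5, a WD-repeat protein of several chromatin complexes, fell by 0.86 ± 0.14 (adjusted p = 0.00331). Named after their values were seen, Trim28, Uhrf1, Setdb1, Ehmt2 and Max also fell, with -0.50 for Max to -0.71 for Ehmt2. Max and Ehmt2 were close to the threshold (limma adjusted p = 0.0498 and 0.0495). Mga, named above with E2f6 and Max, had -0.48 ± 0.21 and did not pass (adjusted p = 0.168).

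**Figure D3:**
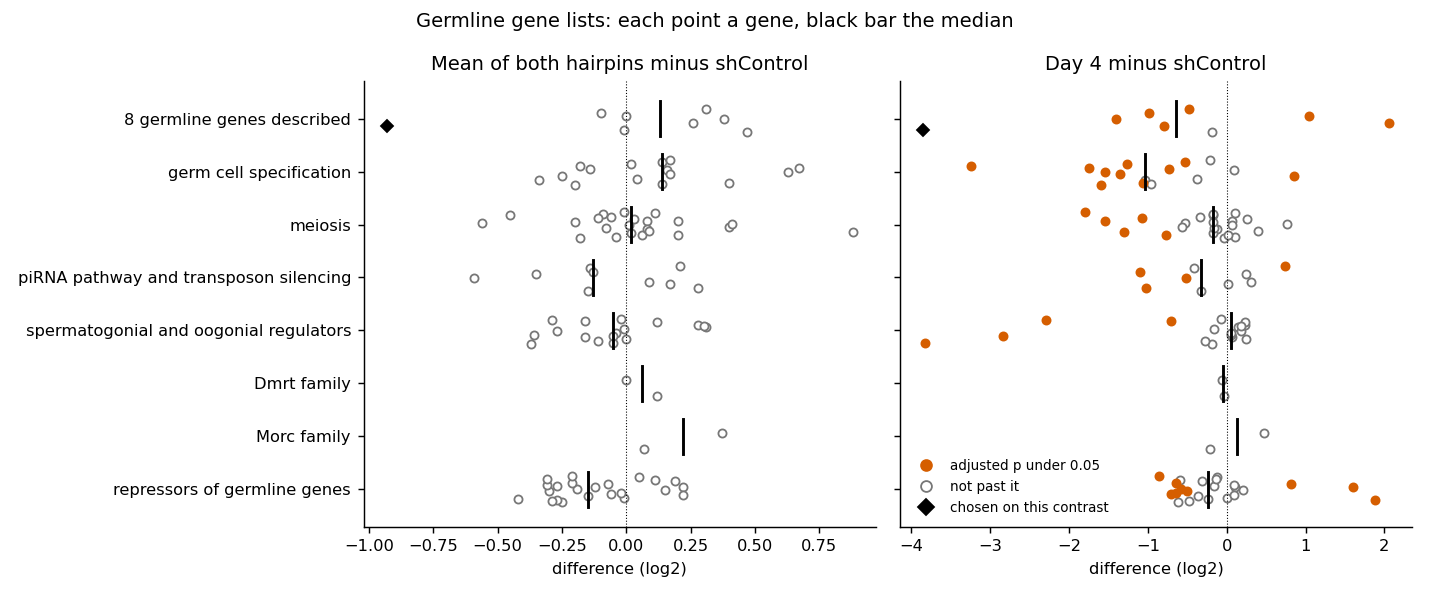
Differences from shControl (log2, horizontal axis) for every measured gene of the 8 germline lists, for the mean of both hairpins at the left and day 4 at the right, on different scales. Filled circles passed an adjusted p under 0.05, open circles did not, diamonds were chosen on that contrast and black bars are medians. On day 4 the germ cell specification list has the lowest median, -1.04, and no filled circle appears for the hairpins.

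With the hairpins 0 of the 91 genes passed in any of the 4 limma comparisons, where at most 0.242% of all genes did. In the mean of both hairpins the differences ran from -0.59 to 0.88 with a median of -0.02. There 15 genes (16.5%) had an unadjusted p under 0.05, beside 8.42% of all genes. Hormad1, named after its values were seen, had the highest of these differences. It had 4.73 and 4.42 in shControl, 5.76 and 5.40 with shRNA1, 5.38 and 5.28 with shRNA2, and 3.28 and 3.25 on day 4, with all 4 hairpin arrays above control and both day 4 arrays under it. The difference was 1.01 ± 0.17 with shRNA1 (adjusted p = 0.0566) and 0.76 ± 0.17 with shRNA2 (adjusted p = 0.338). Ifitm1, named likewise, had 11.35 and 11.67 in shControl, 12.34 and 12.41 with shRNA1 and 11.85 and 11.96 with shRNA2. Its difference with shRNA1 was 0.86 ± 0.15 (adjusted p = 0.0642). Without either day 4 array, both genes were called with shRNA1, at adjusted p of 0.0304 for Hormad1 and 0.0329 for Ifitm1. The silencing cofactors Max, Pcgf6 and Mga, also named after their values were seen, did not pass in the mean of both hairpins. They had -0.30 ± 0.13, -0.31 ± 0.13 and -0.29 ± 0.18 (limma adjusted p = 0.579, 0.563 and 0.706), while E2f6 had -0.07 ± 0.11 (adjusted p = 0.884). All 23 repressors ran from -0.42 for Tfdp1 to 0.22 for Hdac2, with a median of -0.15 and 6 above 0.

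The day 4 arrays lay furthest apart for 3 of the 8 genes, of which Sycp3 and Ddx4 were called on day 4 and Dazl was not. Replicate 1 was above replicate 2 by 1.30 for Dazl, 1.27 for Sycp3 and 1.00 for Ddx4. A difference as large was found for 1.23%, 1.36% and 2.91% of all genes. For Dmrt1, Dppa2 and Stra8 it was at most 0.12 in size, and for Morc1 and Dppa3 replicate 2 was the higher, by 0.24 and 0.48. Replicate 1 was higher for 18 of 23 meiosis genes (median 0.10) and 8 of 9 piRNA genes (median 0.46), where it was higher for 5757 of 12393 genes (median -0.02). For the repressors the median was -0.24 and 5 of 23 were higher in replicate 1. Of the 10 stem cell markers 6 were higher in replicate 1 (median 0.28), with the widest gap for Esrrb, at 7.35 and 4.76, while Nanog had 9.88 and 9.94. The part of these genes in the difference was not tested.

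Other cell types' markers were read on the same arrays, as linear RMA values summed over a list. For the counts below, 16.4% of all genes were called on day 4, 7.67% higher and 8.73% lower. Of 10 gonadal somatic markers, 1, Wt1, passed on day 4 (1.51 ± 0.23, limma adjusted p = 0.00235). Their sum was 213 to 256 in shControl, 236 with shRNA1, 228 to 245 with shRNA2 and 269 to 313 on day 4. Of 6 trophoblast markers 4 rose on day 4, and their sum was 242 to 287 in shControl and 1360 to 1530 on day 4. The differences of the 6 ran unevenly, from 0.42 for Hand1 to 2.83 for Krt8, with a median of 1.13. Of 8 extraembryonic endoderm markers 1 rose on day 4, with sums of 794 to 816 and 1420 to 1460. Their median difference on day 4 was 0.02, with 4 of 8 above 0, from -0.48 for Sox7 to 0.97 for Lamb1. Of 9 fibroblast markers none passed in the limma fit (2 at an unadjusted p under 0.05), with sums of 187 to 222 and 184 to 193. The sum of the 10 stem cell markers was 35400 to 35500 in shControl and 21900 to 22600 on day 4. Under the hairpins no marker of these 5 lists passed, where at most 0.242% of all genes did. The lists' medians lay between -0.04 and 0.10 in the mean of both. The part of these markers in the germline values was not tested.

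The genes whose profiles were most like those of Dmrt1 and Morc1 were ranked by Pearson's r of the log2 values over the 8 arrays, with no test. For Dmrt1 they were Pstpip2 (r = 0.971), Pitpnb (0.962), Vps72 (0.958), Fance (0.948) and Gpatch2 (0.941), and 16 genes had r over 0.9. All 5 were lowest with shRNA1, which follows from their choice by likeness to Dmrt1 over these same arrays. Their differences from control were -0.43 to -0.69 with shRNA1, against -1.24 for Dmrt1, and -0.21 to -0.38 with shRNA2. For Morc1 they were Tubb2a (0.995), Fxyd4, Epn2 and Cltb (0.994 each) and Rpl39l (0.993), among 654 genes with r over 0.9. Their day 4 differences ran from -0.81 for Epn2 to -3.13 for Rpl39l. The 2 low day 4 arrays weigh most in r for Morc1.

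**Figure D4:**
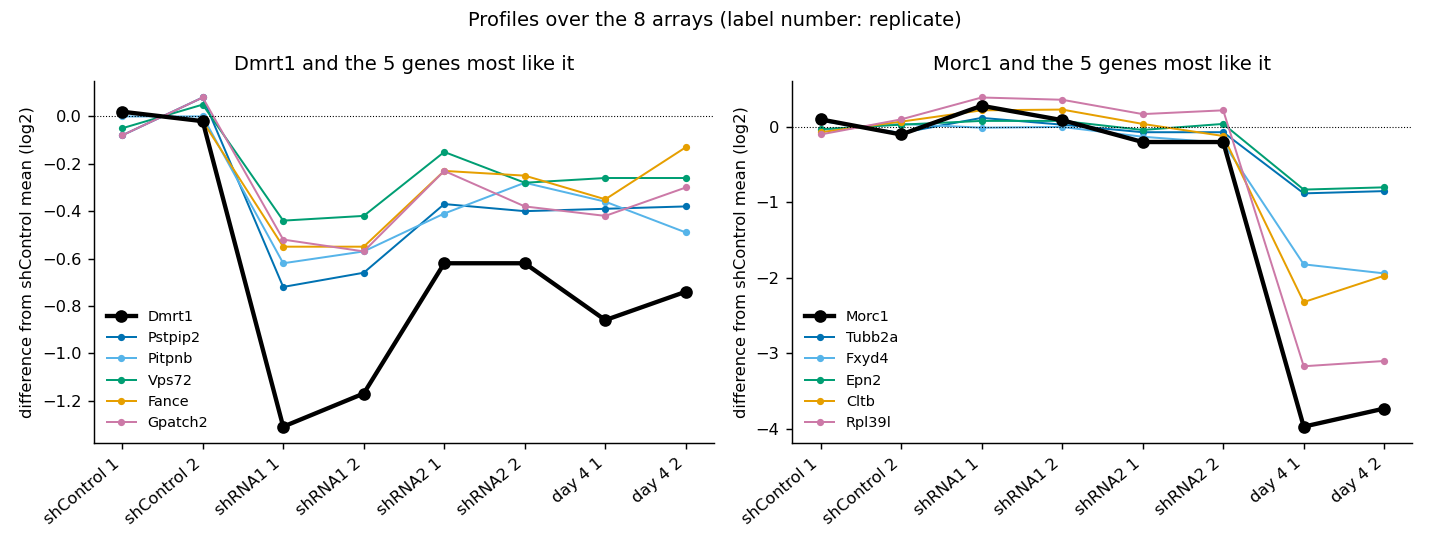
Difference from the shControl mean (log2, vertical axis) on each of the 8 arrays (horizontal axis, number is the replicate) for Dmrt1 and Morc1 in black and the 5 genes most like each in colour. Lines only join the arrays of a gene. Dmrt1 reaches -1.31 on shRNA1 replicate 1, and Morc1 reaches -3.97 on day 4 replicate 1.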

How the data were processed

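RNA was measured on 8 Affymetrix Mouse 430A 2.0 arrays, per the series' design text. The deposited table holds log2 values, 1 per probe set, and the submitters' processing notes name RMA as the authors' method. The sources used here do not give its version, the genome build or which arrays it took together. The number of arrays limits the precision. Of 22690 probe sets, 64 were array controls and 691 had several symbols. Symbols were updated by gene identifier through a RefSeq table (GRCm38.p6) for 20364 of the 20393 probe sets with 1 symbol.

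A gene was represented by its brightest probe set, by the mean of all 8 arrays, which left 12393 genes. A model with 4 group means was fitted with limma 3.58.1 in R 4.3.3 (4 residual degrees of freedom) and p-values were adjusted over all genes. It was checked on simulated data. Second probe sets were tested in a fit of all 22626 probe sets. The genes and lists were chosen with earlier results of these data known. Named are the 8 genes and, per list and comparison, up to 4 called genes with the largest change, plus others said to be named after their values were seen. The 5 genes most like Dmrt1 and Morc1 exclude predicted genes. Alternatives were every probe set, averaged probe sets, the dimmest 30% left out, eBayes with trend and robust, the compared groups alone, repeated quantile normalization, centring, the replicate block and leaving out each array.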

Additional observations from a re-analysis of the deposited data

How the results depend on the processing

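Over the 8 lists, Dmrt1 was left out under the hairpins and Morc1 on day 4. There 38 of 98 genes (38.8%) were called on day 4, beside 16.4% of all genes. The count was 25 with the compared groups alone and 17 to 42 when 1 array was left out, 17 being without shControl replicate 2. Under the other 7 settings that use all arrays it was 34 to 42. In the mean of both hairpins 0 genes were called by limma (16 at an unadjusted p under 0.05), and 1, Hormad1, with the compared groups alone or with the replicate block, and 0 to 1 when 1 array was left out. With shRNA1 0 were called (21 unadjusted). The count was 1 with averaged probe sets, repeated quantile normalization, centring or the replicate block, and 2 with trend and robust eBayes or the compared groups alone, all of them Hormad1 or Ifitm1, and 0 to 2 when 1 array was left out. With shRNA2 and between the hairpins it was 0 throughout (10 and 11 unadjusted). Of the 98 genes, the unadjusted counts made up 16.3% in the mean of both hairpins and 21.4% with shRNA1. They made up 10.2% with shRNA2 and 11.2% between the hairpins. Over all genes these shares were 8.42%, 9.82%, 5.1% and 5.15%, in that order.

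Of the 6 of the 8 genes called on day 4, Dmrt1 kept its call in 16 of 16 settings, Sycp3 and Dppa3 in 15, Stra8 in 9, Ddx4 in 8 and Dppa2 in 4. For Dmrt1 these settings still use control arrays that entered its choice. Signs that turned were all of values that had not passed. With 1 array left out, Dazl on day 4 ran from -0.84 to 0.46 and, between the hairpins, from -0.19 to 0.13 (0.02 with averaged probe sets). Between the hairpins Stra8 ran from -0.43 to 0.36 and Sycp3 from -0.22 to 0.18. Stra8 ran from -0.48 to 0.31 with shRNA1 and from -0.38 to 0.15 with shRNA2, where Dppa3 ran from -0.25 to 0.41. The cause was not tested.

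The labels number the replicates of all groups but do not say what a number shares. Differences between replicates correlated across genes with r of 0.50 between shRNA1 and shRNA2, 0.26 and 0.23 between shControl and these, and -0.08 to 0.07 with day 4. With the replicate block 42 list genes were called on day 4 in place of 38, and the adjusted p was 0.00842 for Stra8, 0.0195 for Ddx4 and 0.0331 for Dppa2.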
